A study of Mus musculus with 20 samples.

Results

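Type I interferon-stimulated genes are the genes a cell switches on when interferon alpha or beta binds its receptor. A named set of 35 such genes was followed in CD44+CD8+ T cells taken from mouse lungs that carried 4T1 tumours, a mouse mammary carcinoma line. For each gene the probe set listed with that single symbol was used, and where a gene had several, the brightest of them across the 20 arrays was taken. This gave 31 genes of the 35, among 17097 genes measured in all. Oas1a, Bst2, Isg15 and Ifi44 were not analysed here.

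Expression was measured as log2 intensity on Affymetrix arrays in 4 groups of mice treated by the intranasal route. All lungs bore 4T1 tumours, and all cells were purified as CD8+CD44+. Saline-CTRL was saline alone (5 arrays), SD-101 was a ligand of the DNA receptor TLR9 (6 arrays), SD-101+anti-PD-1 added an antibody against the inhibitory receptor PD-1 (5 arrays), and SD-101+anti-PD-1+a-CD4, called the triple group from here on, further added a-CD4 (4 arrays). The labels used here do not say what a-CD4 does to the cells, give no dose or time, and do not state if a numbered sample is 1 mouse, a pool or a repeat. The p-values below therefore reflect only how these arrays vary. No group received anti-PD-1 or a-CD4 without SD-101, so their addition can be read only on top of SD-101. The question addressed here is how far this gene set moved in the purified samples with each treatment.

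Interferon alpha and beta bind IFNAR1 and IFNAR2, the kinases JAK1 and TYK2 become active, and a complex of STAT proteins with IRF9 enters the nucleus. The complex binds a short DNA element near the start of its target genes, whose core repeats GAAA with a short gap, and the targets include sensors of viral nucleic acid, enzymes and binding proteins that block viral replication, and brakes on the pathway itself. IRF7, one of the products, in turn raises interferon alpha transcription. In the lung, TLR9 ligands are known to act first on cells that express TLR9, such as plasmacytoid dendritic cells and B cells, and T cells are among the cells that respond to the interferon released.

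The samples carried T cell markers, while Cd44 was not among the markers examined. Cd8a lay between 9.45 and 11.66 on every array and Cd4 between 2.69 and 3.51, and no gene of a 12-gene T cell identity list was called in any of the 6 comparisons of groups (limma, unadjusted p under 0.05 for 0 of 12 in each). Transcripts of other lung cells were present at high levels as well. The surfactant gene Sftpc lay between 12.53 and 13.44, the highest value on any array, and the mean of 14 lung epithelial genes between 8.01 and 10.42. In saline the group mean was 9.64 for the T cell list, 9.23 for an endothelial list and 9.05 for the lung epithelial list. Interferon-stimulated genes can be expressed by such cells too, so a level here is that of the purified sample. In such bulk samples a change in the number of cells of a type and a change in RNA per cell cannot be told apart. Some arrays stood apart in marker lists. Saline-CTRL replicate 1 had a T cell mean of 8.88 and a neutrophil mean of 10.16, triple group replicate 2 a T cell mean of 8.42, triple group replicate 1 a neutrophil mean of 9.15, and SD-101 replicate 4 a macrophage mean of 6.95. Counts without these 4 arrays are given beside each comparison.

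All 31 genes had their lowest group mean in Saline-CTRL. The mean of the 31 log2 values of an array was 6.39 to 7.04 over the 5 saline arrays, 7.33 to 7.88 over the 6 SD-101 arrays, 7.44 to 8.06 over the 5 SD-101+anti-PD-1 arrays and 7.34 to 8.02 over the 4 triple group arrays. Every treated array thus lay above every saline array, while the 3 treated groups overlapped each other. As group means ± SD these were 6.62 ± 0.24 (n = 5), 7.53 ± 0.26 (n = 6), 7.75 ± 0.24 (n = 5) and 7.62 ± 0.32 (n = 4). The highest group mean was in SD-101 for 5 genes, in SD-101+anti-PD-1 for 16 and in the triple group for 10.

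**Figure D1:**
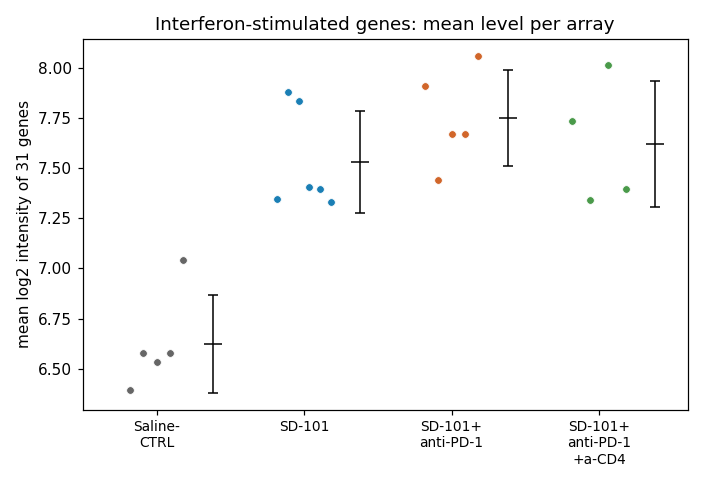
Mean log2 intensity of the 31 interferon-stimulated genes on each array (y axis) in the 4 groups (x axis), with each point an array and the black bar the group mean and SD. The 5 saline arrays lie between 6.39 and 7.04, below all 15 treated arrays, which start at 7.33.

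A gene was called when its limma p, adjusted by Benjamini-Hochberg over all 17097 genes, was under 0.05. Against saline, 13 of the 31 genes rose with SD-101, where 0.298% of all genes were called higher. With SD-101+anti-PD-1 22 of 31 rose, where 3.47% of all genes were called higher, and in the triple group 20 of 31 rose, where 4.09% were. No member fell in any comparison, while 0.0351%, 2.15% and 3.03% of all genes were called lower in these 3. The median log2 fold change of the 31 genes was 0.78, 0.92 and 0.88 in the 3 treated groups, beside 0.01, 0.03 and 0.04 over all genes. All 31 estimates were above 0 in each comparison, called or not. In SD-101+anti-PD-1 Ifi35 went below 0 with every array centred on its median (-0.05), and also without Saline-CTRL replicate 1, without the 2 arrays of lowest T cell mean or without the 4 arrays that stand apart (-0.01 in each).

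The 2 groups' arrays did not overlap, with the treated group higher, for 16 of 31 genes with SD-101, 19 with SD-101+anti-PD-1 and 16 in the triple group. Over all genes the same held for 0.807%, 3.36% and 4.84%. Of the 15 treated arrays, those above every saline array of their comparison numbered 2 for Mx2, 4 each for Ifi35 and Oas2, 5 for Herc6 and 6 for Eif2ak2, the fewest of the set.

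**Figure D2:**
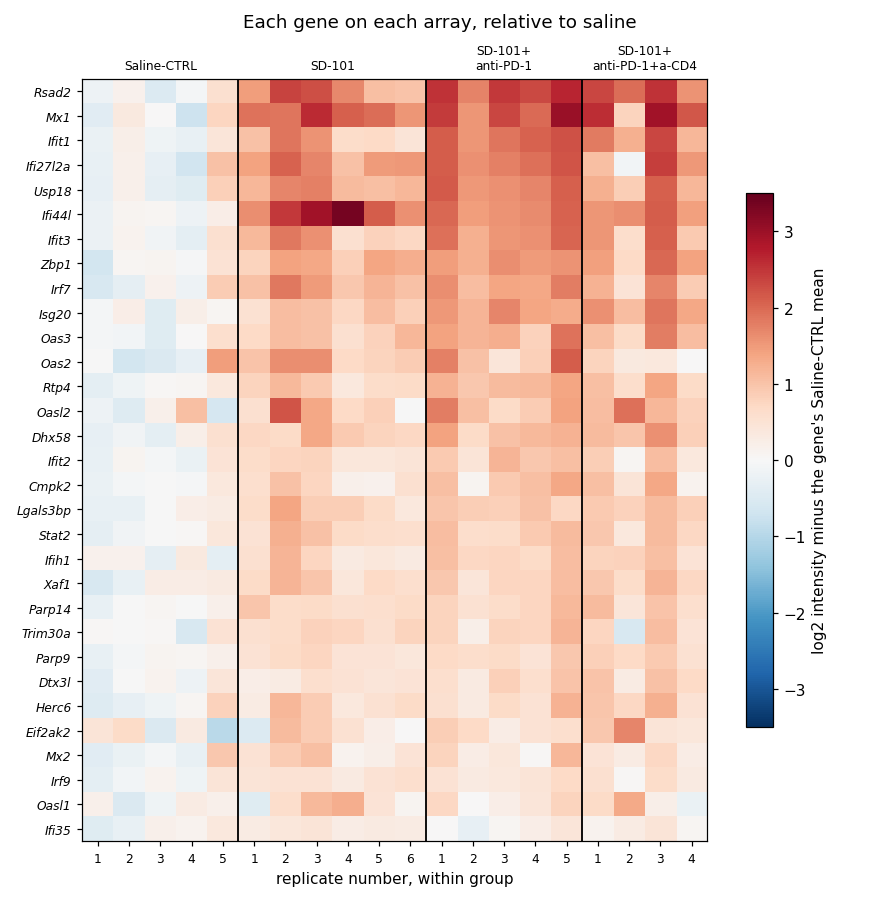
Each row is 1 of the 31 genes and each column 1 array, in 4 blocks by group, with colour for the array's log2 intensity minus the gene's Saline-CTRL mean (red higher, blue lower). Rows are ordered by the log2 fold change of SD-101+anti-PD-1 against saline, from Rsad2 at 2.35 to Ifi35 at 0.09, and Saline-CTRL replicate 5 is the reddest saline column.

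The count for SD-101 alone moved with single arrays. Its value of 13 became 5, 6, 6 and 7 without Saline-CTRL replicate 1, 2, 3 or 4, and 5 and 7 without SD-101 replicate 3 or 5, while 17 were called without Saline-CTRL replicate 5. It was 7 without the 2 arrays of lowest T cell mean, 4 without the 4 arrays that stand apart, 7 with arrays centred on their median and 3 with only the 2 groups fitted. Zbp1, Mx1, Rsad2, Isg20 and Ifi44l were called in all 11 fits that each left out 1 array, and the other 8 were not. A call depends on the adjustment over all genes of a fit, of which 51 were called higher with all arrays. The 4 genes whose call was lost most often were Dhx58, Stat2, Rtp4 and Irf7. Over the 11 fits their estimates ranged over 0.76 to 0.998, 0.68 to 0.88, 0.67 to 0.84 and 1.11 to 1.48. In SD-101+anti-PD-1 the count was 21 to 26 over its 10 such fits and 22 without the 4 arrays, and 20 of the 22 genes were called in all 10. In the triple group it was 17 to 23 over 9 such fits, 14 without the 4 arrays and 12 with only the 2 groups fitted, and 17 of the 20 genes were called in all 9.

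Markers of other cells moved with the groups. Of 14 endothelial genes, 13 fell in SD-101+anti-PD-1 and 13 in the triple group against saline, and their mean per array was 8.08 to 10.004 in Saline-CTRL, 7.22 to 9.42 in SD-101, 5.57 to 6.58 in SD-101+anti-PD-1 and 6.66 to 7.97 in the triple group. Of 9 B cell and plasma cell genes, 2 rose with SD-101 and 2 with SD-101+anti-PD-1, and their mean was 4.69 to 5.45, 5.70 to 6.88, 5.59 to 6.13 and 4.56 to 5.61 in the same order of groups. Of 16 macrophage and monocyte genes 0 were called with SD-101 (limma, 5 at an unadjusted p under 0.05), and their mean was 4.43 to 5.48 in saline and 4.69 to 6.95 with SD-101. Of 6 conventional dendritic cell genes 0 were called with SD-101 (limma, 4 at an unadjusted p under 0.05), and their mean was 3.35 to 3.71 in saline and 3.44 to 6.61 with SD-101. The lung epithelial mean was 8.01 to 9.98, 8.48 to 9.68, 9.92 to 10.41 and 8.65 to 9.68 from saline to the triple group. Other calls against saline were few. With SD-101, 1 of 6 NK cell genes rose. With SD-101+anti-PD-1, 1 macrophage gene fell, and 1 lung epithelial gene and 3 of 11 fibroblast genes rose. In the triple group, 1 of 6 plasmacytoid dendritic cell genes fell, 1 of 6 CD4 T cell genes rose, and 1 fibroblast gene rose and 1 fell. The lowest log2 value of the arrays was 1.785, so no marker could be listed at 0, whether expressed or not. With the means of the macrophage, B cell, endothelial and lung epithelial lists as covariates, limma called 0 members in each comparison with saline, and 20, 20 and 24 of 31 had an unadjusted p under 0.05. All 31 estimates stayed above 0 in each, with medians of 0.93, 1.27 and 1.10, and the fit called 1 gene of all 17097 in each comparison. The part of other cells in these results was not tested beyond this.

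The DNA element bound by the STAT and IRF9 complex was looked for in RefSeq promoter windows (assembly GRCm38.p6), each from 250 bases before to 50 after an annotated start. The letters searched were GAAA, any 2 bases and GAAA again, or on the other strand TTTC, any 2 bases and TTTC. Of 21 measured members with a window, 8 held it in at least 1 window, and 13 did not, beside 3.59% of 13605 measured genes with a window. For 10 measured members no window was used here. The 8 were Stat2, Ifih1, Eif2ak2, Oas3, Ifit1, Ifit3, Rsad2 and Trim30a. A match is a description of the letters, not of binding. The 6 stretches below lie before the annotated start and are printed on the strand of the gene, 5′ to 3′, with the matched letters in capitals. They show how the same element sits singly or in a pair before genes that moved differently.
Ifit1 (chr19:34640760-34640838, + strand): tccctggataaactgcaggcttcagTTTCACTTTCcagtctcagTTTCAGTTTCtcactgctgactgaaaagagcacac
Ifit3 (chr19:34583348-34583441, + strand): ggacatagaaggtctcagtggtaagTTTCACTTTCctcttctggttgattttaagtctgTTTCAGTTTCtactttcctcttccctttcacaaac
Rsad2 (chr12:26456538-26456597, - strand): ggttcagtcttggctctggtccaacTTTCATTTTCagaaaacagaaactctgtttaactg
Oas3 (chr5:120777700-120777759, - strand): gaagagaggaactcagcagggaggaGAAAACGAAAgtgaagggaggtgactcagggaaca
Stat2 (chr10:128270251-128270310, + strand): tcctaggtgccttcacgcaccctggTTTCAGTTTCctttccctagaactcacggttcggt
Trim30a (chr7:104465195-104465254, - strand): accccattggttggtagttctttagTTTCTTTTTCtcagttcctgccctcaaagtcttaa
Ifit1 and Ifit3 each held a pair of matches, which began 104 and 85 bases before the start in Ifit1 and 156 and 122 before it in Ifit3. Rsad2 held 1 match at 120 bases, Oas3 1 at 75, Stat2 1 at 222 and Trim30a 1 at 36 in the window printed. A second window of Trim30a, not printed, held a match 2 bases after its own start. The first 5 of these genes were called in at least 1 comparison with saline, and Trim30a in none. Of the genes with a match that are not printed, Ifih1 was called and Eif2ak2 was not. Among the 13 members without a match, Irf7, Isg20, Ifi44l, Lgals3bp, Xaf1, Dtx3l, Herc6, Cmpk2 and Ifit2 were called against saline. Irf9, Oasl1, Oasl2 and Ifi35 were not. A link of the match with the calls was not tested.

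Of the transcription factors, Irf7 and Stat2 rose against saline in all 3 treated groups and Irf9 was called in none. Irf7, the factor that amplifies interferon alpha transcription, had log2 values of 7.04, 7.28, 7.75, 7.41 and 8.49 on the saline arrays. With SD-101 it was 8.53 at the lowest, 8.70 at the median and 9.44 at the highest. With SD-101+anti-PD-1 it was 9.23, 8.69, 8.98, 8.93 and 9.38, and in the triple group it was 8.80, 8.07, 9.29 and 8.47. Every SD-101 and SD-101+anti-PD-1 array was above every saline array, whereas 2 of 4 triple group arrays lay below Saline-CTRL replicate 5. Its log2 fold change was 1.25 (SE 0.25, adjusted p = 0.0345) with SD-101, 1.45 (SE 0.26, adjusted p = 0.00192) with SD-101+anti-PD-1 and 1.06 (SE 0.27, adjusted p = 0.0235) in the triple group. The Irf7 call was lost for SD-101 in 8 of 11 fits that each left out 1 array (highest adjusted p 0.114, without Saline-CTRL replicate 1), and for the triple group in 3 of 9 fits that each left out 1 array (highest adjusted p 0.0803, without triple group replicate 3). Stat2, a subunit of the STAT and IRF9 complex, rose by 0.78, 0.87 and 0.79, and its SD-101 call was lost in 9 of 11 fits that each left out 1 array (highest adjusted p 0.158, without Saline-CTRL replicate 1). Irf9, the DNA-binding partner in that complex, ranged over 7.61 to 8.43 in saline, 8.29 to 8.56 with SD-101, 8.29 to 8.65 with SD-101+anti-PD-1 and 8.0 to 8.61 in the triple group. Its differences from saline were 0.48 (SE 0.13, adjusted p = 0.181), 0.46 (SE 0.14, adjusted p = 0.0515) and 0.39 (SE 0.14, adjusted p = 0.116), below the threshold in each.

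Among the nucleic acid sensors Zbp1 had the smallest p. ZBP1 recognises left-handed nucleic acid and can start inflammatory cell death. Its log2 values were 7.79, 8.49, 8.52, 8.37 and 8.93 in saline. They were 9.21 at the lowest, 9.73 at the median and 9.82 at the highest with SD-101. They were 9.88, 9.66, 10.05, 9.92 and 9.98 with SD-101+anti-PD-1 and 9.84, 9.13, 10.42 and 9.83 in the triple group. No treated array of any group reached down to the saline range. The log2 fold change was 1.18 (SE 0.20, adjusted p = 0.0145), 1.48 (SE 0.21, adjusted p = 0.000406) and 1.39 (SE 0.23, adjusted p = 0.00151) in that order, or 2.26-fold, 2.79-fold and 2.62-fold. Dhx58, which encodes the RNA sensor LGP2, rose by 0.86, 1.09 and 1.12, although its SD-101 call was lost in 10 of 11 fits that each left out 1 array (highest adjusted p 0.161, without Saline-CTRL replicate 3). Ifih1, which encodes the long double-stranded RNA sensor MDA5, rose by 0.86 with SD-101+anti-PD-1 and 0.79 in the triple group. With SD-101 alone Ifih1 differed by 0.58 (SE 0.17, adjusted p = 0.217), and its triple group call was lost without triple group replicate 3 (adjusted p = 0.0509). Eif2ak2, the kinase PKR that stops translation on viral RNA, was called in none. Its values ranged over 3.29 to 4.92 in saline, 3.75 to 5.34 with SD-101, 4.50 to 5.09 with SD-101+anti-PD-1 and 4.64 to 5.96 in the triple group, so that all groups overlapped.

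Enzymes of the OAS family make the messenger that activates RNase L, though not every member does. Only Oas3 of the 4 measured members was called, in SD-101+anti-PD-1 and the triple group. Oas3 was low in saline, at 3.74, 3.69, 3.37, 3.79 and 4.38. It was 4.35 at the lowest, 4.71 at the median and 4.95 at the highest with SD-101. It was 5.21, 4.97, 5.06, 4.61 and 5.71 with SD-101+anti-PD-1 and 4.84, 4.47, 5.59 and 4.89 in the triple group. All 9 arrays of both groups with anti-PD-1 lay above every saline array, and 5 of 6 SD-101 arrays did. Its log2 fold changes were 1.32 (SE 0.22, adjusted p = 0.00117) and 1.15 (SE 0.23, adjusted p = 0.00534), and with SD-101 alone 0.89 (SE 0.21, adjusted p = 0.0989). Oas2 was called in none. Its values were 4.52, 3.89, 4.01, 4.24 and 5.98 in saline, the last of these as high as the treated arrays. They were 5.23 at the lowest, 5.47 at the median and 6.17 at the highest with SD-101. They were 6.28, 5.57, 4.94, 5.37 and 6.64 with SD-101+anti-PD-1 and 5.30, 4.87, 4.90 and 4.55 in the triple group. The triple group arrays were thus low for Oas2, with 3 of 4 below every SD-101+anti-PD-1 array and 3 of 4 below every SD-101 array. The difference of the triple group from SD-101+anti-PD-1 was -0.85 (SE 0.38, adjusted p = 0.247), with a 95% interval of -1.66 to -0.05, not past the threshold, and the 2-sided exact permutation p was 0.0476. Against saline Oas2 differed by 1.10 (SE 0.35, adjusted p = 0.308), 1.23 (SE 0.36, adjusted p = 0.053) and 0.38 (SE 0.38, adjusted p = 0.645).

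Oasl1 and Oasl2 were called in no comparison. Oasl1 ranged over 4.12 to 4.89 in saline, 4.18 to 5.89 with SD-101, 4.62 to 5.40 with SD-101+anti-PD-1 and 4.38 to 5.94 in the triple group. Oasl2 ranged over 4.64 to 6.27, 5.23 to 7.44, 5.90 to 7.01 and 6.05 to 7.17 in the same order. Oasl2 differed from saline by as much as 1.26 (SE 0.39, adjusted p = 0.0564) in the triple group, and its highest saline value lay within all 3 treated ranges.

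The 3 IFIT genes encode related proteins, of which IFIT1 binds viral RNA lacking the host's cap marks. None of the 3 genes was called with SD-101 alone, all 3 rose with SD-101+anti-PD-1, and Ifit1 and Ifit3 rose in the triple group. Ifit1, the gene with a pair of matches printed above, had values of 5.94, 6.37, 6.02, 5.89 and 6.57 in saline. It was 6.61 at the lowest, 7.02 at the median and 8.04 at the highest with SD-101. It was 8.29, 7.71, 8.03, 8.21 and 8.40 with SD-101+anti-PD-1 and 7.97, 7.42, 8.51 and 7.33 in the triple group. Every treated array lay above every saline array, and the SD-101 arrays were spread, with replicates 2 and 3 near the SD-101+anti-PD-1 values and replicates 4, 5 and 6 close to the top of saline. The log2 fold change was 1.04 (SE 0.26, adjusted p = 0.113) with SD-101, 1.97 (SE 0.27, adjusted p = 0.000274) with SD-101+anti-PD-1, or 3.91-fold, and 1.65 (SE 0.28, adjusted p = 0.00193) in the triple group. Ifit3 rose by 1.67 with SD-101+anti-PD-1 and 1.29 in the triple group, and differed by 1.12 (SE 0.27, adjusted p = 0.105) with SD-101. Ifit2 had values of 6.29, 6.63, 6.48, 6.30 and 7.02 in saline. It was 6.95 at the lowest, 7.09 at the median and 7.32 at the highest with SD-101. It was 7.47, 7.0, 7.74, 7.50 and 7.61 with SD-101+anti-PD-1 and 7.41, 6.61, 7.63 and 6.92 in the triple group. The triple group arrays of Ifit2 were split, with 2 above every SD-101 array and 2 below every SD-101 array. Its log2 fold changes were 0.57 (SE 0.18, adjusted p = 0.289), 0.92 (SE 0.18, adjusted p = 0.00482) and 0.60 (SE 0.20, adjusted p = 0.0725), of which the middle one, for SD-101+anti-PD-1, was called.

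Of the 5 antiviral effectors, 3, 4 and 3 rose in the 3 treated groups against saline. Rsad2 encodes viperin, an enzyme that makes a chain-terminating nucleotide. Its values were 5.31, 5.63, 5.0, 5.42 and 6.03 in saline. They were 6.46 at the lowest, 7.06 at the median and 7.84 at the highest with SD-101. They were 8.02, 7.21, 7.96, 7.78 and 8.15 with SD-101+anti-PD-1 and 7.80, 7.43, 8.0 and 7.05 in the triple group. No treated array overlapped saline. The log2 fold change was 1.64 (SE 0.26, adjusted p = 0.01), 2.35 (SE 0.27, adjusted p = 0.000193) and 2.09 (SE 0.29, adjusted p = 0.000638), or 3.11-fold, 5.08-fold and 4.26-fold. Mx1, a dynamin-like GTPase that blocks viral replication in the nucleus, rose by 2.0 (SE 0.34, adjusted p = 0.0145), 2.27 (SE 0.36, adjusted p = 0.000796) and 2.12 (SE 0.38, adjusted p = 0.00258). Its values ranged over 4.01 to 5.48 in saline, 6.27 to 7.35 with SD-101, 6.26 to 7.74 with SD-101+anti-PD-1 and 5.50 to 7.67 in the triple group. Mx2, its cytoplasmic relative, was called in none and ranged over 4.06 to 5.41, 4.58 to 5.51, 4.49 to 5.62 and 4.72 to 5.19, with the highest saline value on Saline-CTRL replicate 5. Cmpk2, the nucleotide kinase gene beside Rsad2 on chromosome 12, rose by 0.89 with SD-101+anti-PD-1 alone, and that call was lost in 7 of 10 fits that each left out 1 array (highest adjusted p 0.0898, without SD-101+anti-PD-1 replicate 4).

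Isg20 encodes an exonuclease that degrades single-stranded RNA. Its values were 7.68, 8.0, 7.34, 7.95 and 7.82 in saline. They were 8.29 at the lowest, 8.69 at the median and 8.83 at the highest with SD-101. They were 9.27, 8.95, 9.46, 9.13 and 9.07 with SD-101+anti-PD-1 and 9.35, 8.84, 9.64 and 9.11 in the triple group. The groups stood in steps, with all saline arrays lowest, all SD-101 arrays above them, and all 9 arrays with anti-PD-1 above every SD-101 array. Its log2 fold change against saline was 0.88 (SE 0.15, adjusted p = 0.0145), 1.42 (SE 0.16, adjusted p = 0.000178) and 1.48 (SE 0.17, adjusted p = 0.0003).

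Usp18 encodes the protease that removes ISG15 from proteins and also dampens IFNAR2 signalling, and so is a brake on the pathway. Its values were 6.82, 7.29, 6.81, 6.69 and 7.95 in saline. They were 8.16 at the lowest, 8.27 at the median and 8.87 at the highest with SD-101. They were 9.25, 8.64, 8.70, 8.82 and 9.20 with SD-101+anti-PD-1 and 8.34, 7.99, 9.21 and 8.29 in the triple group. All treated arrays were above all saline arrays, and Saline-CTRL replicate 5 was the nearest to them. The log2 fold change was 1.32 (SE 0.24, adjusted p = 0.0186), 1.81 (SE 0.25, adjusted p = 0.000309) and 1.34 (SE 0.26, adjusted p = 0.00445), and the SD-101 call was lost in 4 of 11 fits that each left out 1 array (highest adjusted p 0.0741, without Saline-CTRL replicate 1). Herc6, the mouse ligase that attaches ISG15, was called only in the comparison of the triple group with saline, at 0.86 (SE 0.24, adjusted p = 0.0364). That call was lost in 7 of 9 fits that each left out 1 array (highest adjusted p 0.107, without triple group replicate 3). With SD-101 and SD-101+anti-PD-1 Herc6 differed by 0.65 (SE 0.22, adjusted p = 0.365) and 0.66 (SE 0.23, adjusted p = 0.105).

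Parp9 and Dtx3l encode partners of 1 complex that joins ADP-ribosylation to ubiquitin transfer, and Parp14 a related transferase. Parp9 had values of 8.29, 8.47, 8.63, 8.62 and 8.73 in saline. It was 8.94 at the lowest, 9.04 at the median and 9.30 at the highest with SD-101. It was 9.24, 9.17, 9.21, 9.03 and 9.50 with SD-101+anti-PD-1 and 9.37, 9.23, 9.45 and 9.08 in the triple group. The saline and treated ranges were apart, by a small step. Its log2 fold change was 0.55 (SE 0.10, adjusted p = 0.0244), 0.68 (SE 0.11, adjusted p = 0.000702) and 0.74 (SE 0.11, adjusted p = 0.00106), with the SD-101 call lost in 4 of 11 fits that each left out 1 array (highest adjusted p 0.0876, without Saline-CTRL replicate 1). Dtx3l had values of 7.65, 8.05, 8.18, 7.88 and 8.49 in saline. It was 8.30 at the lowest, 8.51 at the median and 8.65 at the highest with SD-101. It was 8.63, 8.37, 8.88, 8.64 and 9.05 with SD-101+anti-PD-1 and 9.05, 8.34, 9.08 and 8.76 in the triple group. Saline-CTRL replicate 5 reached into all 3 treated ranges of Dtx3l. It differed by 0.43 (SE 0.16, adjusted p = 0.443) with SD-101 and rose by 0.66 (SE 0.16, adjusted p = 0.0202) with SD-101+anti-PD-1 and 0.76 (SE 0.17, adjusted p = 0.012) in the triple group. The SD-101+anti-PD-1 call of Dtx3l was lost in 2 of 10 fits that each left out 1 array (highest adjusted p 0.0607, without Saline-CTRL replicate 4). Parp14 rose by 0.68, 0.77 and 0.78, and its SD-101 call was lost in 6 of 11 fits that each left out 1 array (highest adjusted p 0.0962, without Saline-CTRL replicate 1).

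Ifi44l had its highest group mean in SD-101 alone. Its role is little defined beyond its strong response to interferon. It was low in saline, with a mean below the median of every array, at 3.16, 3.48, 3.44, 3.19 and 3.60. It was 4.99 at the lowest, 5.66 at the median and 6.72 at the highest with SD-101. It was 5.38, 4.83, 4.96, 5.04 and 5.45 with SD-101+anti-PD-1 and 4.93, 5.01, 5.51 and 4.80 in the triple group. All treated arrays were above all saline arrays, and SD-101 replicates 2, 3, 4 and 5 stood above the highest array of the SD-101+anti-PD-1 group. The log2 fold change was 2.35 (SE 0.26, adjusted p = 0.00027), 1.76 (SE 0.27, adjusted p = 0.000547) and 1.69 (SE 0.28, adjusted p = 0.00176). No linear fold is given, since the saline level may be background and the true difference larger. The difference of SD-101+anti-PD-1 from SD-101 was -0.59 (SE 0.26, adjusted p = 0.214) and that of the triple group from SD-101 -0.66 (SE 0.27, adjusted p = 0.226), neither past the threshold. The highest Ifi44l values lay on SD-101 replicates 4 and 3, whose conventional dendritic cell means were 6.61 and 5.38, beside 3.45 to 4.28 on the other SD-101 arrays. Their macrophage means were 6.95 and 5.71, beside 4.69 to 5.21. Without replicate 4 the difference of SD-101+anti-PD-1 from SD-101 was -0.39, and with the cell type means as covariates -0.16, and the part of dendritic cells was not tested.

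Ifi27l2a, which encodes a small membrane protein strongly induced by interferon, had values of 8.61, 9.04, 8.59, 8.18 and 9.89 in saline. It was 9.89 at the lowest, 10.37 at the median and 10.94 at the highest with SD-101. It was 10.98, 10.46, 10.64, 10.79 and 11.05 with SD-101+anti-PD-1 and 9.92, 8.77, 11.27 and 10.38 in the triple group. The lowest SD-101 array was level with the highest saline array, and the triple group arrays ran from within the saline range to the highest value of all 20 arrays. The log2 fold change was 1.54 (SE 0.34, adjusted p = 0.0673), 1.92 (SE 0.36, adjusted p = 0.00263) and 1.23 (SE 0.38, adjusted p = 0.0566), called for SD-101+anti-PD-1. Rtp4, a chaperone of receptors that also acts against RNA viruses, had values of 8.13, 8.31, 8.52, 8.55 and 8.84 in saline. It was 8.84 at the lowest, 9.19 at the median and 9.62 at the highest with SD-101. It was 9.70, 9.42, 9.57, 9.62 and 9.87 with SD-101+anti-PD-1 and 9.53, 9.08, 9.85 and 9.13 in the triple group. The lowest SD-101 array of Rtp4 met the highest saline array, and both groups with anti-PD-1 were clear of saline. Its log2 fold change was 0.75 (SE 0.16, adjusted p = 0.0441), 1.16 (SE 0.16, adjusted p = 0.000335) and 0.93 (SE 0.17, adjusted p = 0.00325), and the SD-101 call was lost in 9 of 11 fits that each left out 1 array (highest adjusted p 0.15, without Saline-CTRL replicate 1).

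Lgals3bp, a secreted binding protein of galectins, rose by 0.80, 0.88 and 0.92, with the SD-101 call lost in 4 of 11 fits that each left out 1 array (highest adjusted p 0.0742, without Saline-CTRL replicate 1). Xaf1, an antagonist of an inhibitor of apoptosis, rose by 0.79 with SD-101+anti-PD-1 and 0.88 in the triple group, and differed by 0.75 (SE 0.17, adjusted p = 0.0914) with SD-101. Ifi35 and Trim30a were called in none. Ifi35, which partners the NMI protein, had the smallest differences of the set, 0.33 (SE 0.14, adjusted p = 0.501), 0.09 (SE 0.14, adjusted p = 0.807) and 0.23 (SE 0.15, adjusted p = 0.419). Its values ranged over 7.74 to 8.54, 8.44 to 8.61, 7.88 to 8.58 and 8.23 to 8.62 from saline to the triple group. Trim30a, a brake on Toll-like receptor signalling in mouse, ranged over 7.57 to 8.64, 8.69 to 8.93, 8.35 to 9.31 and 7.56 to 9.22. All 6 SD-101 arrays of Trim30a lay above every saline array, and its SD-101 difference of 0.69 (SE 0.23, adjusted p = 0.39) did not pass the threshold.

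**Figure D3:**
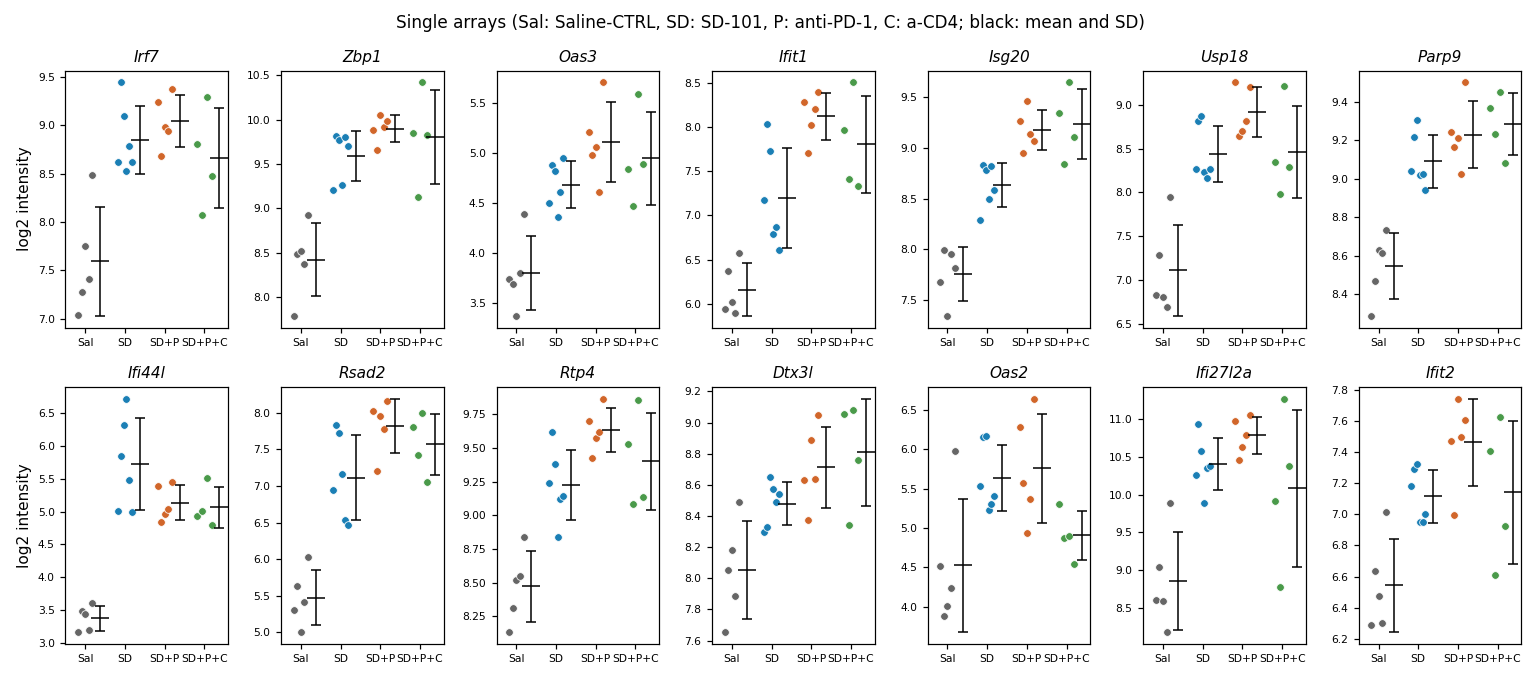
Log2 intensity (y axis, scaled to each gene) of 14 genes on each array, by group on the x axis (Sal, Saline-CTRL; SD, SD-101; SD+P, SD-101+anti-PD-1; SD+P+C, the triple group), with each point an array and the black bar the mean and SD. Isg20 is lowest in saline and next lowest in SD-101, Ifi44l is highest in SD-101 alone with a top array at 6.72, and Oas2 in SD+P+C (4.55 to 5.30) lies low among the treated groups.

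The calls fell into classes by group. All 13 genes called with SD-101 were called in both other comparisons with saline too, and these 3 comparisons share the saline arrays. A further 6 genes were called in both SD-101+anti-PD-1 and the triple group (Ifih1, Oas3, Ifit1, Ifit3, Dtx3l and Xaf1), 3 in SD-101+anti-PD-1 alone (Ifit2, Cmpk2 and Ifi27l2a), 1 in the triple group alone (Herc6) and 8 in none. A call in 1 group and not in another does not show that the groups differ, and the direct comparisons follow.

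**Figure D4:**
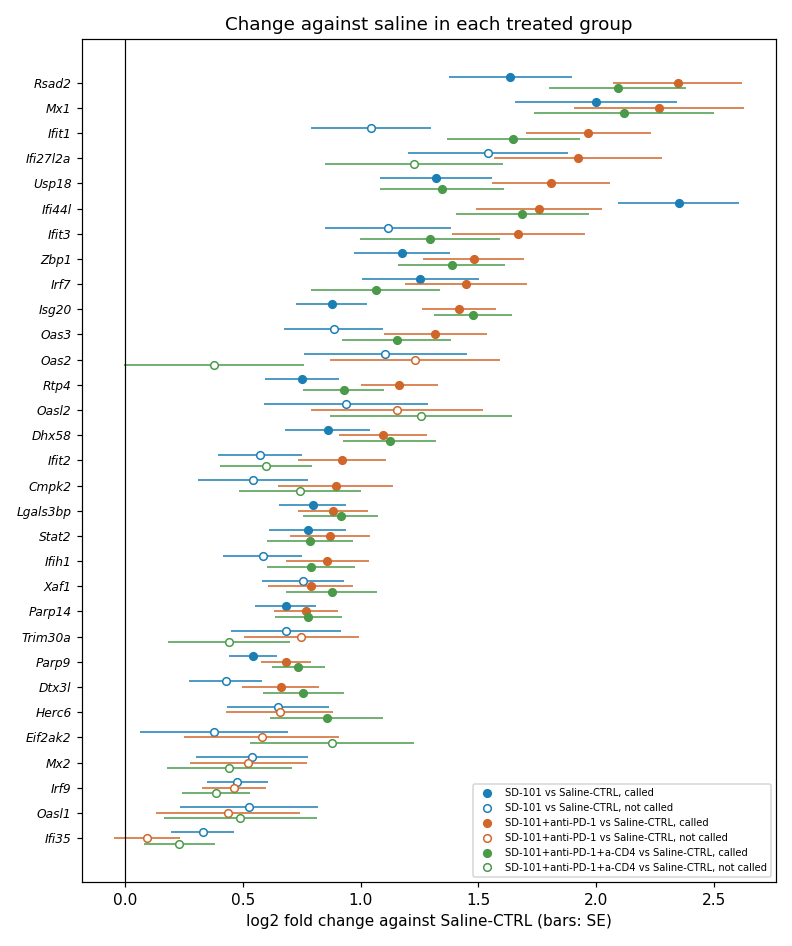
Log2 fold change against Saline-CTRL (x axis) of each of the 31 genes (y axis, in the order of the SD-101+anti-PD-1 change) in the 3 treated groups, with bars for 1 SE, filled points for called genes and open points for genes not called. All points lie above 0, from 0.09 for Ifi35 in SD-101+anti-PD-1 to 2.35 for Ifi44l in SD-101.

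Between SD-101+anti-PD-1 and SD-101 the share of members called was near that of all genes. Of 31 genes, 2 were called higher, Ifit1 and Isg20, and 0 lower, where 3.52% of all genes were called higher and 1.25% lower, and 5 members had an unadjusted p under 0.05. A count this close to the background is no result about the set. Ifit1 rose by 0.92 (SE 0.26, adjusted p = 0.045), or 1.9-fold, with 3 of 5 SD-101+anti-PD-1 arrays above every SD-101 array and a 2-sided exact permutation p of 0.0195. Isg20 rose by 0.54 (SE 0.15, adjusted p = 0.0452), or 1.46-fold, with all 5 SD-101+anti-PD-1 arrays above all 6 SD-101 arrays and an exact permutation p of 0.00216, the smallest possible. Isg20 was the only member whose arrays did not overlap here, beside 4.09% of all genes. Both calls were near the threshold. The Ifit1 call was lost in 8 of 11 fits that each left out 1 array (highest adjusted p 0.119, without SD-101+anti-PD-1 replicate 1), and the Isg20 call in 8 of 11 fits that each left out 1 array (highest adjusted p 0.121, without SD-101+anti-PD-1 replicate 3). The count was 0 without SD-101 replicate 1, 4, 5 or 6 or SD-101+anti-PD-1 replicate 1, 3 or 4, 1 without SD-101 replicate 3 or SD-101+anti-PD-1 replicate 5, and 0 without the 4 arrays that stand apart, with arrays centred on their median, with the replicate number as a block or with the cell type means as covariates.

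Rsad2 and Rtp4 came next, with differences of 0.71 (SE 0.26, adjusted p = 0.133) and 0.41 (SE 0.16, adjusted p = 0.149). Their 95% intervals were 0.16 to 1.26 and 0.08 to 0.74, and neither was called. The median difference over the 31 genes was 0.22, beside 0.01 over all genes, and 26 of 31 estimates were above 0. With arrays centred on their median these became 0.10, beside a median over all genes of -0.11, and 20 of 31, with 0 members called by limma and 4 at an unadjusted p under 0.05. Of 14 endothelial genes, 12 fell in this comparison. Among 16 macrophage and monocyte genes limma called 1 lower, with 9 at an unadjusted p under 0.05 and a median of -0.68. All 6 conventional dendritic cell genes were lower, with a median of -0.96, 0 called by limma and 4 at an unadjusted p under 0.05. In other lists 1 of 6 NK cell genes fell, and 1 of 6 plasmacytoid dendritic cell genes and 1 of 11 fibroblast genes rose. Of 14 lung epithelial genes, 2 rose and 11 had an unadjusted p under 0.05, all 14 estimates were above 0 with a median of 1.09, and the list's mean was 8.48 to 9.68 on the SD-101 arrays and 9.92 to 10.41 on the SD-101+anti-PD-1 arrays, which did not overlap. The part of these cells in the differences of the members was not tested beyond the covariate fit. The 95% interval for Irf7 was -0.33 to 0.71, for Stat2 -0.24 to 0.44 and for Mx1 -0.45 to 0.99, which is widest for Mx1.

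Between the triple group and SD-101, limma called 0 of 31 members, beside 0.573% of all genes higher and 0.409% lower, and 3 members had an unadjusted p under 0.05. These were Isg20 at 0.60 (SE 0.16, adjusted p = 0.0725), Ifi44l at -0.66 (SE 0.27, adjusted p = 0.226) and Ifit1 at 0.61 (SE 0.27, adjusted p = 0.269). All 4 triple group arrays lay above all 6 SD-101 arrays for Isg20, with an exact permutation p of 0.00476, the smallest possible, and for no other member, beside 3% of all genes. The median difference was 0.12, beside 0.03 over all genes, with 22 of 31 above 0. The count of called members stayed 0 without the 4 arrays that stand apart and in each fit without 1 array, and was 1 with array weights. In the cell type lists, 1 NK cell gene was called lower here. All 14 endothelial genes were lower, with a median of -1.53, 0 called by limma and 14 at an unadjusted p under 0.05.

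Adding a-CD4 to SD-101+anti-PD-1 likewise gave 0 called members by limma, beside 0.948% of all genes higher and 1.18% lower, and 1 member with an unadjusted p under 0.05, Oas2, whose values are given above. The median difference was -0.08, beside 0.002 over all genes, and 12 of 31 estimates were above 0. That number was 6 without triple group replicate 3, 8 with the cell type means as covariates and 17 without the 4 arrays that stand apart, so no direction of the set is read from it. No member's arrays lay wholly above those of SD-101+anti-PD-1, beside 3.92% of all genes. Among the larger differences Ifi27l2a gave -0.70 (95% interval -1.49 to 0.10) and Usp18 -0.46 (95% interval -1.02 to 0.09). The count stayed 0 without the 4 arrays that stand apart and in each fit without 1 array. For Dtx3l the interval was -0.27 to 0.46 and for Isg20 -0.29 to 0.41. In the cell type lists, 1 CD4 T cell gene rose, and 1 lung epithelial and 1 fibroblast gene fell. The 14 endothelial genes had a median of 1.25, with 0 called by limma and 9 at an unadjusted p under 0.05. A p that misses the threshold does not show that the groups were alike.

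**Figure D5:**
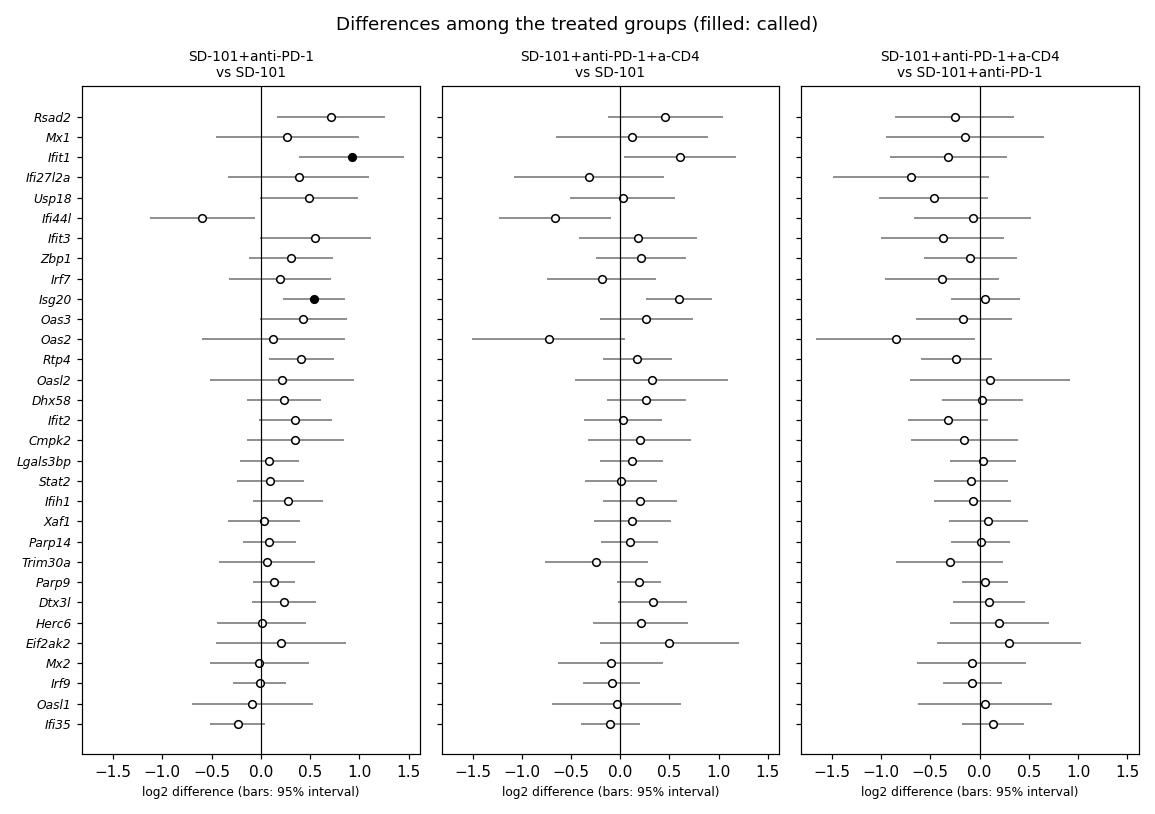
Log2 difference (x axis) of each of the 31 genes (y axis) in the 3 comparisons among the treated groups, with bars for the 95% interval and filled points for called genes. Only Ifit1 at 0.92 and Isg20 at 0.54 are filled, both in SD-101+anti-PD-1 against SD-101, and the intervals of Ifi44l lie below 0 in both comparisons with SD-101.

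Arrays of 1 group differed from each other across the whole set. Saline-CTRL replicate 5 was the highest saline array for 26 of the 31 genes and replicate 1 the lowest for 16. Among the SD-101+anti-PD-1 arrays replicate 5 was highest for 23 genes and replicate 2 lowest for 23. In the triple group, replicate 3 was highest for 26, and replicates 2 and 4 were lowest for 17 and 14. SD-101 replicate 2 was highest for 16 genes and replicate 3 for 10. The T cell mean was also highest in its group on Saline-CTRL replicate 5 (10.29), SD-101+anti-PD-1 replicate 5 (10.11) and triple group replicate 3 (10.36), and lowest on Saline-CTRL replicate 1 (8.88), SD-101+anti-PD-1 replicate 2 (9.65) and triple group replicate 2 (8.42). In SD-101 it was lowest on replicate 2 (9.35), where most members were highest. Its part in the spread of the members was not tested. The median SD of the members within a group was 0.36 in saline, 0.33 with SD-101, 0.27 with SD-101+anti-PD-1 and 0.36 in the triple group, beside 0.23, 0.21, 0.19 and 0.22 over all genes.

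Of the genes upstream of the set, limma called 0 of 10 measured interferon genes in each comparison, with 0 to 2 at an unadjusted p under 0.05. Apart from Ifng, their group means were 2.30 to 3.11, below the median of every array (3.52 to 3.75). A change of these genes may therefore have gone unseen. Ifnb1 ranged over 2.46 to 2.92 in saline, 2.42 to 2.72 with SD-101, 2.57 to 2.86 with SD-101+anti-PD-1 and 2.62 to 2.85 in the triple group, values near the bottom of the arrays' range. Ifng, the type II interferon that T cells make, averaged 7.96 ± 0.69 (SD, n = 5), 9.09 ± 1.05 (SD, n = 6), 8.48 ± 0.40 (SD, n = 5) and 9.18 ± 1.10 (SD, n = 4). Its log2 differences from saline were 1.14, 0.52 and 1.22 in the 3 treated groups, and none was called. The part of Ifng in the changes of the members was not tested. The receptor genes Ifnar1 and Ifnar2 and the kinase genes Jak1 and Tyk2 were called in none of the 6 comparisons. Against saline Ifnar2 differed by 0.26 (SE 0.10, adjusted p = 0.156) with SD-101+anti-PD-1, and Ifnar1 by -0.32 (SE 0.15, adjusted p = 0.246). Of the 9 receptor and kinase genes, 1 was called against saline, Ifngr2, a chain of the interferon gamma receptor, at -0.82 (SE 0.20, adjusted p = 0.0173) in the triple group.

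Among 12 further signalling factors and brakes, none was called with SD-101 or SD-101+anti-PD-1 (limma, 2 and 1 at an unadjusted p under 0.05), and 2 rose in the triple group, the transcription factor Irf8 by 1.73 (SE 0.39, adjusted p = 0.0104) and the phosphatase Ptpn11 by 0.34 (SE 0.10, adjusted p = 0.0364). The group means of Irf8 were 6.142 in saline, 7.672 with SD-101, 6.535 with SD-101+anti-PD-1 and 7.875 in the triple group. The SD-101 mean was thus also above saline, though not called. Irf1, Irf3, Socs1 and Tlr9 were called in none, and the group means of Tlr9, 2.74 to 2.92, were near the bottom of the arrays' range. Of 14 genes of nucleic acid sensing, Sting1, the adaptor for cytosolic DNA, rose in all 3 groups, by 0.69 (SE 0.12, adjusted p = 0.0145), 0.61 (SE 0.12, adjusted p = 0.00562) and 0.63 (SE 0.13, adjusted p = 0.00695), and no other did. Of 38 other genes known to respond to interferon, 3 rose with SD-101, 10 with SD-101+anti-PD-1 and 10 in the triple group, and 0 fell. Their median log2 fold change was 0.38, 0.38 and 0.45, below the 0.78, 0.92 and 0.88 of the 31 genes. Both sets were chosen with earlier results of these data known, so no contrast between them is read from this. Oas1g rose by 1.26 (SE 0.20, adjusted p = 0.0114), 1.67 (SE 0.21, adjusted p = 0.000204) and 1.64 (SE 0.23, adjusted p = 0.000638), though its probes may read near-identical relatives of the OAS1 family. Phf11a and the immunoproteasome gene Psmb9 rose in all 3 as well, Psmb9 by 0.61, 0.53 and 0.76. Ube2l6, the enzyme that carries ISG15 to its ligase, rose by 1.06 (SE 0.18, adjusted p = 0.00135) with SD-101+anti-PD-1 and 0.98 (SE 0.19, adjusted p = 0.00413) in the triple group, from 2.62 to 3.02 in saline, as low as Ifnb1, so that the saline level may be background. Pml, which organises nuclear bodies, rose by 0.64 with SD-101+anti-PD-1 and 0.84 in the triple group, and Nmi, the partner of IFI35, by 0.40 and 0.54. In the comparisons among treated groups limma called 0 genes of these 5 lists, with 0 to 4 genes per list and comparison at an unadjusted p under 0.05. Ifngr2, Irf8 and Ptpn11 were chosen for naming after their values were seen, since they make up the counts of their lists.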

How the data were processed

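The 20 arrays measured total RNA of CD8+CD44+ cells, biotin-labelled, per the labels' protocols. The deposited values are log2 intensities of probe sets, made by the authors. The submitters' processing notes name affy, RMA, limma and the build mm8, with neither versions nor the steps they served. These log2 values (1.78 to 13.44, array medians 3.52 to 3.75) were used as they stand, with no filter. Array data carry no read depth, and the number of arrays limits the precision. Of 45141 probe sets, 28898 were listed with 1 gene symbol, 551 with several and 15692 with none, and symbols were checked against RefSeq through Entrez identifiers (28689 matched, 0 changed).

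A single model of the 4 group means was fitted to all arrays (limma 3.58.1, R 4.3.3), and 6 comparisons were drawn from it with a 2-sided moderated test. The fit was tested on simulated data. Exact permutation tests took the difference of group means over all arrangements (Python 3.11.15). The members and lists were chosen with earlier results of these data known. Given array by array were, in each role, the member of smallest p against saline, and the 4 or fewer members with the lowest p among treated groups, per comparison, and members called in none were given by their ranges. For the SD-101 group the lowest, median and highest array stand in place of single arrays. Other genes of the pathway were 10 fixed names where measured and the called genes of smallest p, up to 6 per comparison. Alternatives changed the probe sets, scaling, filter, variance model, array weights, groups fitted, replicate block, cell type covariates and arrays left out. The setting that leaves out 4 arrays together was added after seeing the data. Same-numbered arrays did not deviate together, with a median correlation of 0.01 (-0.39 to 0.52 over 27 pairs), so numbers were not treated as pairs.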

Additional observations from a re-analysis of the deposited data

Results flagged for a closer look

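In 3 of 124 combinations of a gene and a group, 1 array lay far from the others by Dixon's test at the 95% level, which chance alone would give in about 1 of 20. Dhx58 was 7.60 on SD-101 replicate 3, beside 6.94 to 7.18 on the other SD-101 arrays. Mx2 was 5.41 on Saline-CTRL replicate 5, beside 4.06 to 4.39 on the other saline arrays. Parp14 was 8.80 on SD-101 replicate 1, beside 8.39 to 8.51 on the others of its group.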

How the results depend on the processing

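No member's difference between groups that was called changed sign under any setting. Against saline, the 13 genes called with SD-101 became 7 with arrays centred on their median, 3 with only both compared groups fitted, 7 without the 2 arrays of lowest T cell mean, 4 without the 4 arrays that stand apart, 0 with cell type covariates and 5 to 17 when 1 array was left out. The 22 with SD-101+anti-PD-1 became 0 with cell type covariates, and the 20 in the triple group became 12 with only both compared groups fitted and 0 with cell type covariates. In SD-101+anti-PD-1 against SD-101, the 2 called became 0 with centring, 1 with quantile normalization, 0 with a filter on low values, 4 with array weights, 0 with cell type covariates, 0 without the 4 arrays and 0 to 2 when 1 array was left out. In the triple group against SD-101, array weights called 1 in place of 0. The covariate fits have fewer residual degrees of freedom, and their covariates themselves differ between the groups. The cause of these changes was not tested for any setting. With the replicate number as a block, the SD-101 count against saline was 7 and that of SD-101+anti-PD-1 against SD-101 was 0; the others were 23, 20, 0 and 0. Over single members, 3586 of 3870 values kept their side of the threshold, 230 were no longer called and 54 became called. The 3586 include differences called in neither fit, some of which changed sign. Precision is limited by 4 to 6 arrays per group.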

Other observations

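Of the 31 genes, 10 had more than 1 single-symbol probe set, and the ones not used also read the same arrays. For Ifi44l 1 other probe set had group means of 3.31, 5.72, 4.93 and 4.83 (saline, SD-101, SD-101+anti-PD-1 and the triple group), again highest in SD-101 alone, while another was flat at 2.67, 2.73, 2.66 and 2.70. For Rsad2 both other probe sets, at 3.78, 5.12, 5.75 and 5.46 and 3.36, 4.76, 5.43 and 5.13, were lowest in saline and highest in SD-101+anti-PD-1. For Dhx58 the brighter of both others, at 3.89, 4.88, 5.01 and 5.14, moved with the one used, and the dimmer was flat near the floor at 2.87, 2.85, 2.82 and 2.89. Probe sets of a gene share the arrays and are no independent replicates.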
